A study of Mus musculus with 4 samples.

Results

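The 10 genes described here encode enteroendocrine hormones and factors: the transcription factors Neurog3 and Neurod1, the granule proteins Chga and Chgb, the serotonin enzyme Tph1, and the peptide precursors Tac1, Cck, Gcg, Sct and Gip. They were chosen by symbol, and all 10 were found among the 52459 genes counted. RNA was measured in intestinal stem cells (ISCs) sorted from the small intestine of wild-type (WT) C57/Bl6 female mice, in 2 pools at 2 months (ISC_2mth, young) and 2 pools at 22 months (ISC_22mth, old). The labels name no treatment at either age. Each pool combined the cells of 5 animals and gave 1 library, so differences between single animals were not measured, and pools are named 1 and 2 after the replicate numbers of the labels. The SM6 sort took EPCAM+, CD44 high, EPHB2 high, CD166+, CD24 medium, GRP78 low cells without the endothelial marker CD31 or the leukocyte marker CD45. It includes no antibody to an enteroendocrine hormone or granule protein.

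Enteroendocrine cells are the scattered hormone-secreting cells of the gut epithelium. They arise from the stem cells of the crypt through a progenitor that switches on NEUROG3, a basic helix-loop-helix factor, and then NEUROD1. Mature cells store peptides or serotonin in dense-core granules and release them when nutrients reach the gut, and subtypes are told apart by their main product, such as enterochromaffin cells (serotonin), L cells (products of proglucagon), I cells (cholecystokinin), S cells (secretin) and K cells (GIP). Tachykinins are made mainly by enterochromaffin cells.

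The libraries held between 11662654 and 15975698 counts, of which 62.6 to 65.7% in ISC_2mth and 72.9 to 73.8% in ISC_22mth lay in mitochondrially encoded genes, leaving 3852178 to 4593004 counts for all other genes. Levels are given as CPM, read counts scaled to a common library size after TMM normalization, on which 3 reads stood for 0.198 to 0.245 CPM. The crypt base columnar stem cell markers were abundant in all pools, with a summed level of 1877 to 2221 CPM over 10 genes. Lgr5, a receptor that marks these cells, lay between 206 and 248 CPM. Of 9 leukocyte markers 4 had no read in any pool, as had 8 of 11 markers of enteric neurons and glia, another source of neuropeptide RNA. The summed level was 0.463 to 1.36 CPM for the leukocyte markers and 0.572 to 1.44 CPM for those of enteric neurons and glia. Markers of other epithelial cells were present too.

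The 10 genes together received 629 and 2410 reads in the ISC_2mth pools and 1851 and 1208 reads in the ISC_22mth pools. Their summed level was 43.3 CPM in ISC_2mth pool 1, 159 CPM in ISC_2mth pool 2, 140 CPM in ISC_22mth pool 1 and 98.8 CPM in ISC_22mth pool 2. ISC_2mth pool 1 therefore stood apart from the other 3 pools, which were 2.28 to 3.68 times as high, and both old pools lay between the young ones. In sorted bulk samples, fewer enteroendocrine cells or progenitors and less of their RNA per cell cannot be told apart.

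**Figure D1:**
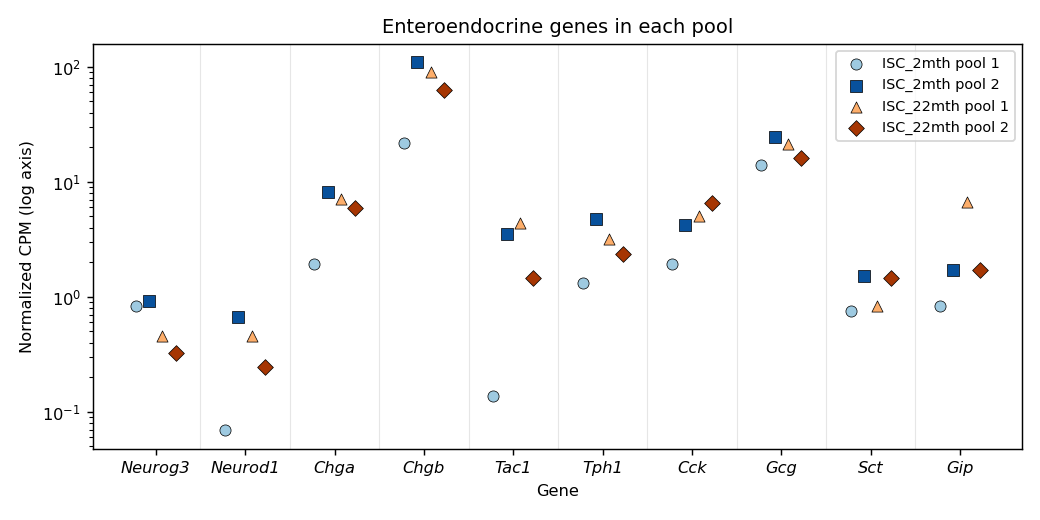
Normalized CPM (vertical log axis) of the 10 enteroendocrine genes (horizontal axis) in ISC_2mth pools 1 and 2 (circles, squares) and ISC_22mth pools 1 and 2 (triangles, diamonds), 1 point per pool. ISC_2mth pool 1 is the lowest of the 4 pools for 9 of 10 genes, all but Neurog3.

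Neither age was called higher for any of the genes that could be tested. At an FDR under 0.05 by edgeR's quasi-likelihood test, 0 of the 9 genes that passed the filter on low counts differed between ages, beside 2.26% of all 13692 genes tested. An unadjusted p under 0.05 was reached by 2 of them, Gip and Cck (22.2%), beside 16.9% of all genes tested, a share near the background. Limma voom with sample quality weights and DESeq2 also called 0, beside 2.34% and 1.44% of all genes tested, and edgeR's likelihood ratio test called 1, Gip, beside 4.46%. The median log2 fold change (ISC_22mth over ISC_2mth) of the 9 genes was 0.22, against -0.0049 for all genes tested, with 6 genes above 0 and 3 below. The pools of the 2 ages did not overlap for 2 of the 9 genes, Cck with both old pools higher and Neurog3 with both old pools lower, beside 47.6% of all genes tested.

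These values depended on which young pool was used. Without ISC_2mth pool 1, 7 of 9 log2 fold changes lay below 0 and 0 of the 9 were called, beside 1.07% of all genes tested. Without ISC_2mth pool 2, 8 of 9 lay above 0 and 5 genes, Chga, Chgb, Tac1, Cck and Gip, were called higher in ISC_22mth, beside 2.04% of all genes tested. In that fit the lone young pool was assumed to vary as the old pools do. Leaving out ISC_22mth pool 1 gave 0 calls among the 9, beside 4.63% of all genes tested, and leaving out ISC_22mth pool 2 gave 1, Gip, beside 5.02%.

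**Figure D2:**
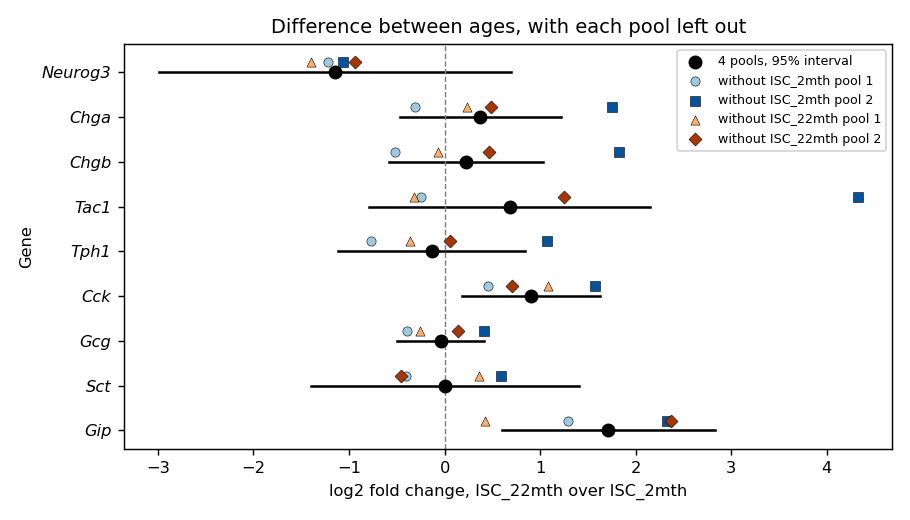
Log2 fold change of ISC_22mth over ISC_2mth (horizontal axis) for the 9 enteroendocrine genes tested, with all 4 pools (black circles, bars for the 95% interval) and with each pool left out (coloured points). Without ISC_2mth pool 2 (squares) 8 of 9 genes lie above 0, and without ISC_2mth pool 1 (light circles) 2 of 9 do.

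Compared per exon length, as RPKM (the CPM divided by the exonic length in kilobases) averaged over the 4 pools, Chgb was the most abundant at 25.9 RPKM (7.87 to 39.9 over pools), followed by Gcg at 12.7 (9.36 to 16.4). Gip at 3.97 RPKM (1.20 to 9.68), Cck at 3.40 (1.48 to 5.01), Chga at 2.10 (0.700 to 2.95) and Sct at 1.78 (1.18 to 2.36) formed a middle range. Tac1 at 0.699 RPKM (0.0405 to 1.29), Tph1 at 0.471 (0.212 to 0.772), Neurog3 at 0.378 (0.195 to 0.553) and Neurod1 at 0.131 (0.0252 to 0.242) were the lowest. The ranges of all neighbours in this order overlapped, so no neighbouring genes differed beyond the spread of the pools. Within pools the order held more often, since Gcg exceeded Gip, Cck exceeded Chga, and Neurog3 exceeded Neurod1 in all 4 pools, whereas Chgb exceeded Gcg in 3 and Gip exceeded Cck in 1.

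The make-up of the reads differed mainly in ISC_2mth pool 1. Chgb and Gcg together held 79.6 to 84.0% of the reads of the 10 genes in every pool. Chgb took 49.8% in ISC_2mth pool 1 and 63.2 to 68.6% in the other 3 pools, while Gcg took 32.3% there and 15.2 to 16.4% elsewhere. For each 100 reads of Chgb there were 64.9 reads of Gcg in ISC_2mth pool 1, and 22.4, 23.5 and 25.9 in ISC_2mth pool 2, ISC_22mth pool 1 and ISC_22mth pool 2. The reads of Chga per 100 reads of Chgb were 8.95, 7.44, 7.85 and 9.56 in the same order of pools, so both granule genes kept a similar ratio in all libraries.

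**Figure D3:**
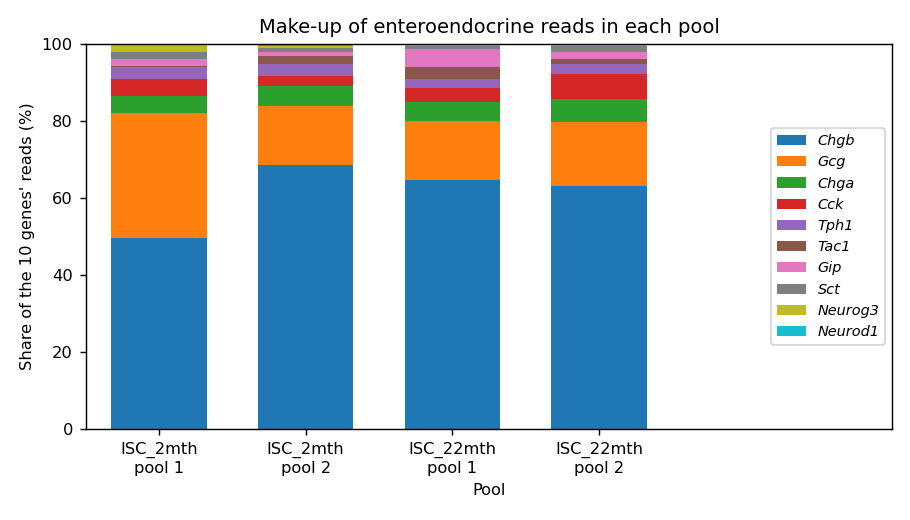
Share of the reads of the 10 enteroendocrine genes (vertical axis, %) taken by each gene (colours) in each of the 4 pools (bars). The Gcg share is 32.3% in ISC_2mth pool 1 and 15.2 to 16.4% in the other pools, where Chgb takes 63.2 to 68.6%.

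The promoters of the 2 genes with the largest moderated log2 difference between the ISC_2mth pools (Tac1, Chgb), of the gene that set ISC_2mth pool 1 apart in make-up (Gcg) and of the hormone gene with no overlap between ages (Cck) are printed here to give the sequence around their start sites. The promoters are RefSeq windows of 300 bases on GRCm38.p6, written 5′ to 3′ on the strand of the gene, and all 10 genes had such a window. Capitals mark CAGATG on either strand, a form of the E-box motif (CANNTG) that basic helix-loop-helix factors such as NEUROD1 bind, and TGACG on either strand, the core of the cyclic AMP response element TGACGTCA.
Chgb (chr2:132781392-132781691, + strand): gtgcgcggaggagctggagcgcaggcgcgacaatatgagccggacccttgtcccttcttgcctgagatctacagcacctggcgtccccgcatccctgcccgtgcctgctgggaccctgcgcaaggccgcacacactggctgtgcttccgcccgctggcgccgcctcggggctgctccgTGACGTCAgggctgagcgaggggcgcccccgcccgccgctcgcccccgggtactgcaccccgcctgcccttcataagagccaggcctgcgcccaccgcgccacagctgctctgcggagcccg
Tac1 (chr6:7554811-7555110, + strand): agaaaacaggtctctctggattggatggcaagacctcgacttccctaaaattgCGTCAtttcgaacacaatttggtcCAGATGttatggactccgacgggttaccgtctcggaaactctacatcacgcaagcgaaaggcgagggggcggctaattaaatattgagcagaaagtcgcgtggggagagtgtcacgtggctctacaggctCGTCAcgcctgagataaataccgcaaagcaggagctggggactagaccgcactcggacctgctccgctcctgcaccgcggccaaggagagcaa
Gcg (chr2:62483604-62483903, − strand): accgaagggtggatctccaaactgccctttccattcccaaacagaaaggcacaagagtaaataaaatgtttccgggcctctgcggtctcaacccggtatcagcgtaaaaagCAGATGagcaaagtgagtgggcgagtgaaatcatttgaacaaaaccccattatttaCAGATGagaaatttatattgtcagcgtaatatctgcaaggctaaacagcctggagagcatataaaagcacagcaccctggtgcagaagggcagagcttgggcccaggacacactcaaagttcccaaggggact
Cck (chr9:121495645-121495944, − strand): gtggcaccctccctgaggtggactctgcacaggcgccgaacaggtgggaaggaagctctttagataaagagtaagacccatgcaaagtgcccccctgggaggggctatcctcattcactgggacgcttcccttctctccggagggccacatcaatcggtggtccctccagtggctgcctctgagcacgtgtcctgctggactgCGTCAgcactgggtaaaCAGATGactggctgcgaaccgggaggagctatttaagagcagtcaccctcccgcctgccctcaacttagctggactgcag
The Chgb window held the full palindrome TGACGTCA, which contains TGACG once on each strand, and no CAGATG. The Gcg window held CAGATG in 2 places and no TGACG, Tac1 held CAGATG once and TGACG in 2 places, and Cck held each once. Of all 32851 RefSeq promoter windows of this length, 17.2% held CAGATG, 20.8% held TGACG, 1.79% held TGACGTCA and 72.3% held CANNTG, of which CAGATG is a special case. These matches describe the letters of the windows, and binding was not measured.

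Neurog3, which commits a crypt progenitor to the enteroendocrine fate, was close to the detection limit. Its single exon lies on chromosome 10 (GRCm38, 62133090 to 62134763, + strand). It had 12 and 14 reads in the ISC_2mth pools and 6 and 4 reads in the ISC_22mth pools, that is 0.827 and 0.926 CPM in young ISCs and 0.453 and 0.327 CPM in old ISCs. Both young pools lay above both old pools, with means of 0.876 ± 0.070 CPM and 0.390 ± 0.089 CPM (SD, n = 2 pools each). Neurog3 passed the filter on low counts, more than 5 reads and more than 1 CPM of all counts in at least 1 pool, only through the young pools. The log2 fold change was -1.14 (SE 0.88, 95% interval -2.99 to 0.70, FDR = 0.546), an interval that holds both a fall and a rise. It was the one gene of the 10 for which ISC_2mth pool 1 was not the lowest pool. The annotation has 273 exonic bases of Fam241b on the opposite strand, and 13.3% of the 50-base stretches of the Neurog3 transcript also occur in Fam241b. Whether the reads were counted by strand is not given in the sources used here, so some reads may belong to either gene.

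Neurod1, the factor that follows NEUROG3 in differentiating cells (chromosome 2, 79452521 to 79456751, − strand), had 1 and 10 reads in the ISC_2mth pools and 6 and 3 reads in the ISC_22mth pools. It did not pass the filter and was not tested. The young pools enclosed the old ones, with 0.0689 and 0.662 CPM at 2 months and 0.453 and 0.245 CPM at 22 months. Of its 50-base stretches 9.66% were shared with the overlapping genes Cerkl and Gm26755, whose exons cover 201 bases of it on the same strand and 154 bases on the opposite strand.

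Chgb encodes chromogranin B (secretogranin 1), an acidic protein of the dense-core granule, and lies on chromosome 2 (132781278 to 132795079, + strand). It had 313 and 1654 reads in the ISC_2mth pools and 1198 and 764 reads in the ISC_22mth pools, or 21.6, 109, 90.5 and 62.5 CPM. The 2 young pools were the lowest and the highest of the 4. The ratio of pool 2 to pool 1 was 5.08 in ISC_2mth (95% counting interval 4.5 to 5.75), and that of pool 1 to pool 2 was 1.45 in ISC_22mth. The means were 65.5 ± 62.1 CPM in young and 76.5 ± 19.8 CPM in old ISCs (SD, n = 2 pools each), a log2 fold change of 0.22 (SE 0.39, 95% interval -0.59 to 1.03, FDR = 0.822). Without ISC_2mth pool 2 the log2 fold change was 1.82, and without ISC_2mth pool 1 it was -0.51. Intervals of such ratios cover counting error only, since amplification can copy 1 molecule into many reads and no molecular identifiers were used.

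Chga encodes chromogranin A, the related granule protein widely used as a marker of enteroendocrine cells (chromosome 12, 102554969 to 102565028, + strand). It followed Chgb, with 28 and 123 reads in the ISC_2mth pools and 94 and 73 reads in the ISC_22mth pools, or 1.93, 8.14, 7.10 and 5.97 CPM. ISC_2mth pool 2 was 4.22 times as high as pool 1 (95% counting interval 2.78 to 6.61), and the old pools lay between them. Between ages Chga had a log2 fold change of 0.37 (SE 0.40, 95% interval -0.47 to 1.22, FDR = 0.690). It was 1.75 without ISC_2mth pool 2 and -0.31 without ISC_2mth pool 1.

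Tph1 encodes tryptophan hydroxylase 1, the rate-limiting enzyme of serotonin synthesis in enterochromaffin cells (chromosome 7, 46644641 to 46672537, − strand). It had 19 and 72 reads at 2 months and 42 and 29 reads at 22 months, or 1.31, 4.76, 3.17 and 2.37 CPM. Again the young pools enclosed the old ones, with a ratio of 3.64 between them (95% counting interval 2.17 to 6.39). Old over young, this was a log2 fold change of -0.13 (SE 0.47, 95% interval -1.11 to 0.84, FDR = 0.919). Its sign turned with the pool left out, from -0.77 without ISC_2mth pool 1 to 1.07 without ISC_2mth pool 2.

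Tac1 encodes the precursor of substance P and neurokinin A, tachykinin peptides of enterochromaffin cells and enteric neurons (chromosome 6, 7554879 to 7565834, + strand). It had 2 and 53 reads in the ISC_2mth pools and 58 and 18 reads in the ISC_22mth pools, or 0.138, 3.51, 4.38 and 1.47 CPM. ISC_2mth pool 1 lay below the level of 3 reads, and the other 3 pools lay above it. The ratio of the young pools was 25.4 (95% counting interval 6.71 to 216), and that of the old pools was 2.98 in the other direction. Between ages, Tac1 had a log2 fold change of 0.68 (SE 0.70, 95% interval -0.79 to 2.15, FDR = 0.672). Its biological coefficient of variation (BCV, the spread between pools of one age beyond counting error) was 0.464, the highest of the 9 genes, against 0.245 for genes of its abundance. The log2 fold change ranged from -0.32 without ISC_22mth pool 1 to 4.32 without ISC_2mth pool 2. The marker list of enteric neurons and glia was level in the young pools, at 1.10 and 1.13 CPM, and its part in the Tac1 values of the old pools (1.44 and 0.572 CPM) was not tested. The EPCAM+ gate of the sort should remove neurons and glia, which lack this epithelial protein.

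Cck encodes cholecystokinin, the hormone that contracts the gall bladder and stimulates pancreatic secretion after a meal (chromosome 9, 121489824 to 121495694, − strand). It had 28 and 64 reads in the ISC_2mth pools and 67 and 80 reads in the ISC_22mth pools, or 1.93, 4.23, 5.06 and 6.54 CPM. Old ISCs were the higher in each pairing of pools, with means of 5.80 ± 1.05 CPM against 3.08 ± 1.63 CPM in young ISCs (SD, n = 2 pools each). This gave a log2 fold change of 0.90 (SE 0.35, 95% interval 0.18 to 1.63, unadjusted p = 0.0169, FDR = 0.185 by edgeR's quasi-likelihood test). It stayed above 0 when any 1 pool was left out, between 0.45 without ISC_2mth pool 1 and 1.58 without ISC_2mth pool 2. The ISC_22mth pools differed by less than counting error, with a ratio of pool 2 to pool 1 of 1.29 (95% counting interval 0.922 to 1.81). Enterocyte markers were likewise higher in both old pools, at a summed 671 and 557 CPM against 226 and 343 CPM, and their part in the Cck values was not tested.

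Gcg encodes proglucagon, which L cells cut into the incretin GLP-1 and the intestinal growth factor GLP-2 (chromosome 2, 62474530 to 62483650, − strand). It had 203 and 371 reads in the ISC_2mth pools and 281 and 198 reads in the ISC_22mth pools, or 14.0, 24.5, 21.2 and 16.2 CPM. The young pools lay outside the old ones on either side, with a ratio of 1.76 (95% counting interval 1.48 to 2.09), smaller than that of Chgb. The means, 19.3 ± 7.47 CPM in young and 18.7 ± 3.56 CPM in old ISCs (SD, n = 2 pools each), differed by less than the spread between pools. The log2 fold change was -0.042 (SE 0.22, 95% interval -0.50 to 0.42, FDR = 0.946), the narrowest interval of the 9 genes.

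Gip encodes glucose-dependent insulinotropic polypeptide, the incretin of K cells (chromosome 11, 96024545 to 96030831, + strand). It had 12 and 26 reads in the ISC_2mth pools and 88 and 21 reads in the ISC_22mth pools, or 0.827, 1.72, 6.65 and 1.72 CPM. ISC_22mth pool 1 stood above the other 3 pools, and ISC_22mth pool 2 lay level with ISC_2mth pool 2, so the ages overlapped. Gip had a log2 fold change of 1.71 (SE 0.53, 95% interval 0.60 to 2.83, unadjusted p = 0.00459, FDR = 0.104 by edgeR's quasi-likelihood test). Without ISC_22mth pool 1 it was 0.42, and without ISC_22mth pool 2 it was 2.37. For each 100 reads of Gcg there were 31.3 reads of Gip in ISC_22mth pool 1 and 5.91 to 10.6 in the other pools. Paneth cell markers were also highest in ISC_22mth pool 1, at a summed 2058 CPM against 924, 714 and 799 CPM in the other pools. The summed markers of goblet, enterocyte and tuft cells were highest there too, and the part of these cell types in the Gip values was not tested.

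Sct encodes secretin, which stimulates bicarbonate secretion (chromosome 7, 141278330 to 141279133, − strand). It had 11 and 23 reads at 2 months and 11 and 18 reads at 22 months, or 0.758, 1.52, 0.831 and 1.47 CPM. The pools of the 2 ages overlapped, and the log2 fold change was 0.0057 (SE 0.67, 95% interval -1.39 to 1.41, FDR = 0.998), an interval that holds differences of more than 1 on the log2 scale in either direction.

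The spread between pools of one age was the main feature of these genes. On a log2 scale moderated by a prior count of 2, ISC_2mth pool 2 lay at least 2-fold above pool 1 for 5 of the 9 genes tested, Tac1 (3.69), Chgb (2.34), Chga (2.00), Tph1 (1.75) and Cck (1.08), beside 3.05% of all genes tested. The median difference was 1.08 for the 9 genes and -0.0022 for all genes tested. Neurod1, which was not tested, differed by 1.91 in the same direction, and Gip (0.94), Sct (0.88), Gcg (0.81) and Neurog3 (0.14) by less than 2-fold. Between the ISC_22mth pools, 2 of 9 genes, Gip (-1.87) and Tac1 (-1.49), were 2-fold or more apart, with pool 1 the higher, beside 7.55% of all genes tested. ISC_2mth pool 1 was the lowest of the 4 pools for 9 of the 10 genes and for 26.5% of all genes tested. The median BCV was 0.293 for the 9 genes and 0.225 for the trend at their abundance, whereas the medians over all genes tested were 0.149 and 0.150. Relative to its trend the BCV was highest for Chgb, at 0.271 against 0.0960.

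**Figure D4:**
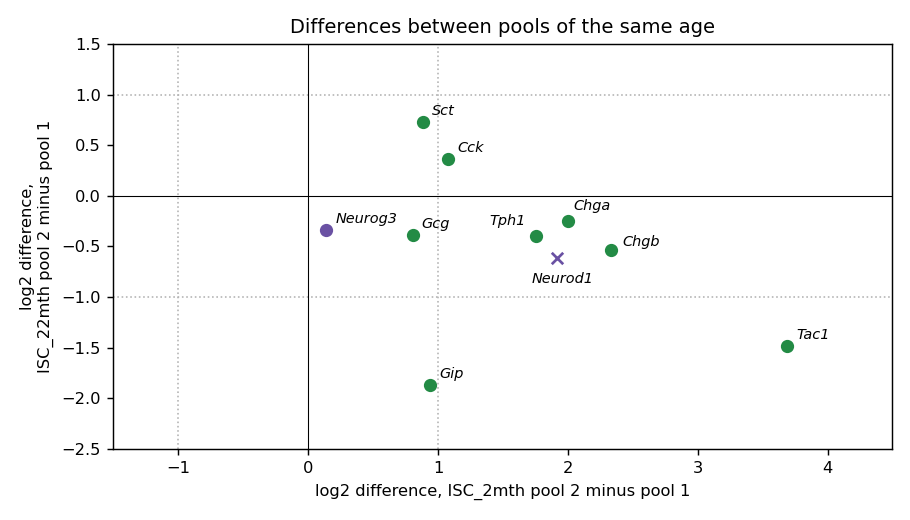
Log2 difference of pool 2 minus pool 1 within ISC_2mth (horizontal axis) and within ISC_22mth (vertical axis) for the 10 enteroendocrine genes, with hormone, granule and enzyme genes in green, transcription factors in purple, a cross for Neurod1 (not tested) and dotted lines at 2-fold. All 10 genes lie right of 0, and Tac1, Chgb, Chga, Neurod1, Tph1 and Cck lie beyond 2-fold.

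Of the markers of other epithelial cells that were tested, 0 of 7 goblet, 0 of 6 Paneth, 1 of 3 tuft and 2 of 7 enterocyte genes were at least 2-fold higher in ISC_2mth pool 2 than in pool 1, beside the 3.05% of all genes. Goblet cell markers summed to 1942 and 2559 CPM in the ISC_2mth pools and to 2653 and 2065 CPM in the ISC_22mth pools, so that they too were lowest in ISC_2mth pool 1, and all 7 were higher in ISC_2mth pool 2 than in pool 1. Paneth cell markers summed to 924 and 714 CPM in young and to 2058 and 799 CPM in old ISCs, with ISC_22mth pool 1 the highest. That pool was also the highest for the goblet, enterocyte and tuft sums and for Tac1, Gip and Sst, another hormone gene. Of the markers tested, 0 of 7 goblet, 2 of 6 Paneth, 3 of 7 enterocyte and 1 of 3 tuft genes were called higher in ISC_22mth. Of all genes tested, 2.26% were called in either direction. The Paneth genes called were the defensins Defa17 (log2 fold change 1.11, FDR = 0.0163) and Defa24 (0.87, FDR = 0.0455). Enterocyte markers summed to 226 and 343 CPM in young and to 671 and 557 CPM in old ISCs, where the fatty acid binding proteins Fabp1 (2.35, FDR = 2.35e-06) and Fabp2 (0.93, FDR = 0.00397) and the disaccharidase Sis (1.38, FDR = 3.34e-05) were called higher. The tuft cell markers summed to 3.03 and 4.96 CPM in young and to 8.39 and 5.23 CPM in old ISCs, with Dclk1, a kinase of tuft cells, called higher (3.09, FDR = 0.0258) after passing the filter only through the old pools, with 4 and 4 reads in young and 42 and 19 reads in old ISCs. The other 2 tuft markers tested were not called, and without Dclk1 the sums were 2.76 and 4.70 CPM in young and 5.21 and 3.68 CPM in old ISCs, which overlapped. The part of these cell types in the values of the enteroendocrine genes was not tested.

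**Figure D5:**
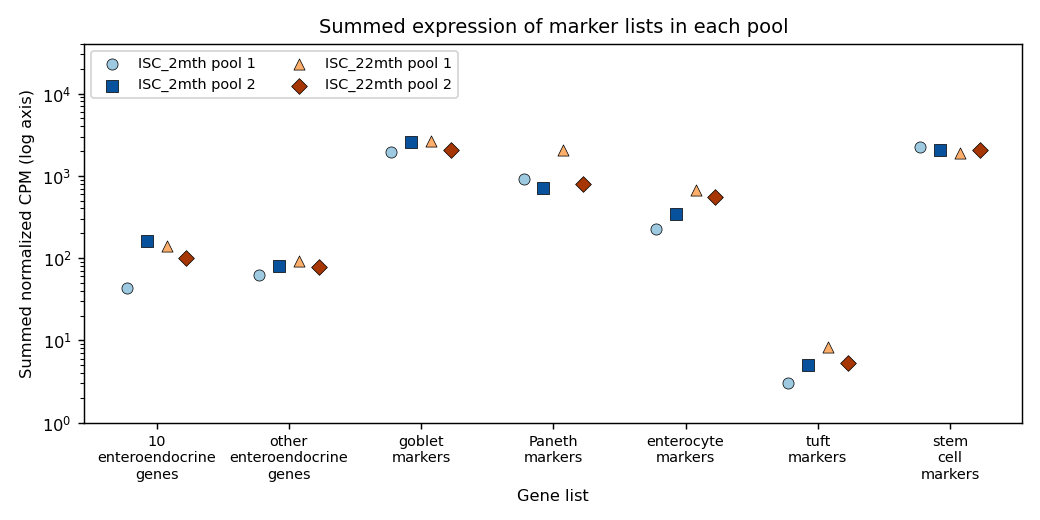
Summed normalized CPM (vertical log axis) of the 10 enteroendocrine genes, 56 other enteroendocrine genes and the marker lists of 5 other cell types (horizontal axis), 1 point per pool. The 10 enteroendocrine genes span 43.3 to 159 CPM over pools, against 1877 to 2221 CPM for the stem cell markers.

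In 5 further lists of 56 enteroendocrine genes, 25 passed the filter on low counts, and 2 were called higher and 0 lower in ISC_22mth by edgeR's quasi-likelihood test, with 3 (12%) at an unadjusted p under 0.05, against 16.9% of all genes tested, of which 2.26% were called. Of the 25, 13 passed the filter through pools of both ages, 6 through ISC_2mth pools alone and 6 through ISC_22mth pools alone, so that counts and medians over the 25 depend in part on the filter. Both genes called were among the last 6. The median log2 fold change of the 25 was 0.16. ISC_2mth pool 2 was at least 2-fold above pool 1 for 12 of the 25, beside 3.05% of all genes tested, and pool 1 at least 2-fold above pool 2 for 2, with a median difference of 0.75. Of the 12, Fev, Scg2 and Syt13 passed the filter only through ISC_2mth pool 2, and of the 2, Ghrl only through ISC_2mth pool 1. The filter in part set the differences of these genes, which were named after their values were seen. The summed level of the 56 genes was 61.3 and 79.9 CPM in young and 91.9 and 78.0 CPM in old ISCs. The genes called were Sst and Cpe.

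Sst encodes somatostatin, the D cell peptide that restrains the release of other gut hormones. It had 7 and 7 reads in the ISC_2mth pools and 120 and 9 reads in the ISC_22mth pools, so 1 old pool carried the difference, and Sst passed the filter only through that pool. The log2 fold change was 3.36 (SE 0.77, FDR = 0.0247), and 0.63 (FDR = 0.862) without ISC_22mth pool 1, the pool that was also the highest for Gip and for the Paneth cell markers (2058 CPM against 714 to 924 CPM), whose part in the Sst values was not tested. The FDR of Sst was 0.265 by limma voom with sample quality weights and 0.370 by DESeq2.

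Cpe encodes carboxypeptidase E, which trims basic residues from prohormone intermediates in the granule. It had 11 and 10 reads in the ISC_2mth pools and 42 and 39 reads in the ISC_22mth pools, or 0.758, 0.662, 3.17 and 3.19 CPM. Cpe passed the filter only through the old pools, in which it was the higher. The log2 fold change was 2.15 (SE 0.50, 95% interval 1.11 to 3.19, FDR = 0.0267). The FDR was 0.0521 by DESeq2, 0.0766 without ISC_2mth pool 1 and 0.0886 without ISC_2mth pool 2, where the log2 fold change stayed between 2.05 and 2.25. Unlike Chgb and Chga, Cpe was not lower in ISC_2mth pool 1 than in pool 2.

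Among 16 other transcription factors of enteroendocrine differentiation, 9 were tested and 0 called, beside 2.26% of all genes tested. The median log2 fold change was 0.32. By edgeR's quasi-likelihood test 1 of the 9 (11.1%) had an unadjusted p under 0.05, beside 16.9% of all genes tested. That gene, Lmx1a, named after its values were seen, passed the filter only through ISC_22mth pool 2. ISC_2mth pool 2 was at least 2-fold above pool 1 for 5 of the 9, beside 3.05% of all genes tested. Among the 5 was Rfx6, a factor that acts after NEUROG3 in endocrine cells. Its reads were 6 and 33 at 2 months and 20 and 12 at 22 months. Fev, also among the 5 and named after its values were seen, had 0 and 25 reads at 2 months. It passed the filter only through ISC_2mth pool 2, so the filter in part set its difference. Foxa1, which many epithelial cells express, had 259 and 253 reads in young and 288 and 263 reads in old ISCs and did not share the difference between the young pools. Foxa2 had 27 and 39 reads in young and 27 and 20 reads in old ISCs, and St18 had 16 and 44 reads in young and 15 and 12 reads in old ISCs. Of the 4 genes of serotonin synthesis and vesicle loading beside Tph1, all were tested and 0 called, beside 2.26% of all genes tested. An unadjusted p under 0.05 by the same test was reached by 0 of the 4, beside 16.9% of all genes tested. Ddc, the decarboxylase after TPH1, had 138 and 195 reads in young and 178 and 168 reads in old ISCs, and the vesicle transporter Slc18a1 had 15 and 38 reads in young and 37 and 18 reads in old ISCs. The other two did not have their lowest count in ISC_2mth pool 1. The vesicle transporter Slc18a2 had 115 and 112 reads in young and 80 and 84 reads in old ISCs, and Gch1, an enzyme that makes the cofactor of TPH1, had 22 and 7 reads in young and 29 and 5 reads in old ISCs.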

How the data were processed

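Per the labels and the study's methods, the authors amplified RNA of the sorted ISCs by SPIA, which adds no molecular identifiers, trimmed single-end reads with Trimmomatic 0.30, aligned them to GRCm38 with STAR 2.4.2a, counted exonic reads of GENCODE genes with featureCounts, and deposited raw counts per gene, 1 column per pool. The strand setting and the treatment of multiply aligned reads are not given in the sources used here. A gene was tested if any pool held over 5 reads and over 1 CPM of it (13692 of 52459 genes). Ages were compared with edgeR 4.0.16 (R 4.3.3), TMM and glmQLFTest without covariate, with Benjamini-Hochberg adjustment over the genes kept (FDR under 0.05). The study names limma voom with sample quality weights, run here with limma 3.58.1 beside DESeq2 1.42.0, other scalings and filters, a replicate block, offsets for GC content and length, and each pool left out. Counting intervals of ratios are exact binomial. Replicate libraries differed by more than sampling noise (chi-square per gene 10.3 and 7.53). With 2 pools per age, p-values rest on the spread between pools, which edgeR estimates for each gene partly from other genes. Where a gene's own spread exceeded the trend, as for Chgb (BCV 0.271 against 0.0960), its SE, interval and FDR may be too small.

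The 10 genes and all lists were chosen with earlier results of these data known. Of other lists, genes with an FDR under 0.05 were named, otherwise at most the 4 of highest mean count. Loci and lengths came from GENCODE vM21 (GRCm38), matched by symbol, and promoters from RefSeq. The fits were tested on simulated data.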

Additional observations from a re-analysis of the deposited data

How the results depend on the processing

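The 9 genes tested gave 126 log2 fold changes under alternatives, of which 95 kept their sign and side of the threshold, 19 changed sign and 12 passed the threshold. Cck, Gip and Neurog3 changed sign in 0 of 14 alternatives each. Calls over all genes, 309 at first, were 197 with DESeq2, 611 with the likelihood ratio test, 554 without a filter, 182 with GC and length offsets, 4632 with total counts and 147 to 687 with 1 pool left out (147 and 280 without ISC_2mth pool 1 and 2, 634 and 687 without ISC_22mth pool 1 and 2). Calls among the 9 genes, 0 at first, were 1 with the likelihood ratio test (Gip 1.71, FDR = 0.0413), 1 without a filter (Gip 1.71, FDR = 0.00327), 2 with total counts (Gip 1.23, FDR = 0.0487; Gcg -0.52, FDR = 0.0481) and 0 to 5 with 1 pool left out. Among 75 genes of 7 further lists, 2 calls became 1 with limma voom, 0 with DESeq2, 5 with total counts, 1 with filterByExpr and 1 to 3 with 1 pool left out. Total counts shifted the median of all genes to -0.49 and with it Chga to -0.088, Chgb to -0.23 and Sct to -0.46. Relative to that median these were 0.41, 0.27 and 0.035. Values near 0 also turned for Tph1 (0.12) and Gcg (0.0015) with limma voom and for Sct without a filter (-0.0046) and with filterByExpr (-0.0009). With 1 pool left out, log2 fold changes ran from -0.31 to 1.75 for Chga, -0.51 to 1.82 for Chgb, -1.40 to -0.94 for Neurog3, -0.32 to 4.32 for Tac1, -0.77 to 1.07 for Tph1, 0.45 to 1.58 for Cck, -0.39 to 0.42 for Gcg, -0.45 to 0.59 for Sct and 0.42 to 2.37 for Gip. Apart from the total-count shift, the cause of these changes was not tested.

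The replicate numbers mark different pools at each age, and deviations of same-numbered pools were not correlated (-0.00015 over 13692 genes). This value over all genes does not test single genes. Whether same-numbered pools were processed together is not given in the sources used here. With the replicate block, 624 genes were called, among them 2 of the 9, Chgb (0.57, FDR = 0.00841) and Gip (1.52, FDR = 0.0264), and Tph1 moved to 0.042.

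Counts were lowest for Neurog3, Neurod1 and Sct, which had at most 23 reads in a pool, and the shares of counting error and of the spread between pools in their intervals were not separated.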

Other observations

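Receptors for the products of these genes were mostly at or near 0 in the sorted ISCs. Of 12 receptor genes for cholecystokinin, proglucagon peptides, GIP, secretin, tachykinins and serotonin, 8 had no read in any pool and 2 passed the filter on low counts. Both were serotonin receptors, and 0 were called, beside 2.26% of all genes tested. By edgeR's quasi-likelihood test 0 of the 2 had an unadjusted p under 0.05, beside 16.9% of all genes tested. Htr4, a serotonin receptor coupled to cyclic AMP, had 168 and 96 reads in the ISC_2mth pools and 107 and 98 reads in the ISC_22mth pools, a log2 fold change of -0.15 (SE 0.26, FDR = 0.819). Htr2b had 17 and 13 reads in young and 4 and 6 reads in old ISCs, with a log2 fold change of -1.34 (SE 0.86, FDR = 0.454), and passed the filter only through ISC_2mth pool 1, where it was the highest. Gipr, the GIP receptor, did not pass the filter, with 9 and 12 reads in young and 8 and 9 reads in old ISCs.

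Of 7 genes listed for secretory lineage choice, all passed the filter and 0 were called, beside 2.26% of all genes tested. By edgeR's quasi-likelihood test 1 of the 7 (14.3%) had an unadjusted p under 0.05, beside 16.9% of all genes tested. Atoh1, the factor that commits progenitors to the secretory lineage, had 101 and 159 reads in young and 199 and 150 reads in old ISCs, a log2 fold change of 0.64 (SE 0.22, FDR = 0.148). On the CPM scale the ages did not overlap, with old ISCs higher, and ISC_2mth pool 1 was the lowest, as for 9 of the 10 enteroendocrine genes. Hes1, the Notch target that represses Atoh1, had 36.8 and 37.5 CPM in young and 40.9 and 47.5 CPM in old ISCs (log2 fold change 0.25, SE 0.14, FDR = 0.372).

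Among 8 sensors of nutrients, bile acids and irritants found on enteroendocrine cells, 2 were tested and 0 called, beside 2.26% of all genes tested. An unadjusted p under 0.05 by edgeR's quasi-likelihood test was reached by 0 of the 2, beside 16.9% of all genes tested. The long-chain fatty acid receptor Ffar4 had 3 and 10 reads in young and 18 and 11 reads in old ISCs, and the short-chain fatty acid receptor Ffar2 had 14 and 13 reads in young and 7 and 2 reads in old ISCs. Each passed the filter through 1 pool alone, the one in which it was the highest.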
